A study of Arabidopsis thaliana with 2 samples.

Results

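The flavonoid synthesis enzymes form the short route that turns a phenylpropanoid precursor into flavonols and anthocyanidins. Members were found by locus: CHS (AT5G13930), CHI (AT3G55120), CHIL (AT5G05270), F3H (AT3G51240), TT7 (AT5G07990), FLS1 (AT5G08640), DFR (AT5G42800) and LDOX (AT4G22880). Of these 8 members, 5 (CHS, CHI, CHIL, TT7 and FLS1) had reads among the 22937 loci of the table and are described here. Levels of F3H, DFR and LDOX were not analysed here, and only the sequence around their gene starts was searched. The samples, sequenced as total RNA, were root tips of the primary root of Arabidopsis thaliana, from the wild-type accession Col and from atphb3, whose label names prohibitin PHB3, a protein that helps to organise the inner membrane of mitochondria. Each genotype had 1 library, and the labels give no allele and no age for either, and do not say how many roots were pooled. Seeds of both were kept at 4 °C for 3 days on Murashige and Skoog medium, and seedlings grew at 20 °C in days of 16 h and nights of 8 h, with no treatment named.

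The total was 7451022 reads for Col and 7384348 for atphb3, so 1 read was worth 0.134 and 0.135 CPM (reads scaled to the library total). PHB3 itself had 915 reads in Col against 863 in the library labelled atphb3, which gave a ratio of 0.952 (0.866 to 1.05). That level gave no check of the label, so each direction below rests on the label alone. The libraries also stand apart in shoot markers, which had 143 CPM in Col against 3.39 CPM, and the 3 with reads (RBCS1A, CAB3 and LHB1B1) reached 50 reads in Col alone. A locus is called measured with at least 50 reads in at least 1 library, which 12931 loci were. Ratios are CPM in the library labelled atphb3 over CPM in Col, with a 95% exact binomial (Clopper-Pearson) interval, and levels have a 95% exact Poisson interval; both cover counting error only. With 1 library a group there was no test across genotypes, and no statement below carries a p-value.

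Flavonoids are made from coumaroyl-CoA, the product of the general phenylpropanoid route, and malonyl-CoA. Chalcone synthase (CHS) joins them into chalcone, whose yield the non-catalytic CHIL raises. Chalcone isomerase (CHI), a relative of CHIL, closes the ring. Hydroxylases and dioxygenases then shape flavonols on one branch and anthocyanidins on another. In Arabidopsis roots the main products are glycosides of the flavonols kaempferol and quercetin, which are known to restrain auxin transport and to scavenge reactive oxygen.

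All 5 enzymes with reads had a higher CPM in the library labelled atphb3, while 7065 of the 12931 measured loci had a log2 ratio above 0. The 5 enzymes differed in how much higher they were. The ratio was 5.11 for the hydroxylase TT7, 2.86 for the flavonol synthase FLS1 and 2.08 for CHS, against 1.80 for CHIL and 1.38 for CHI. Thus 3 of 5 were at least 2-fold higher and 0 were 2-fold lower, while of all measured loci 9.74% were this much higher and 10.1% this much lower. Their median log2 ratio was 1.05, beside 0.08 over all measured loci. CHIL passed 50 reads only in the library labelled atphb3, so its difference helped to decide that it entered, and the other 4 passed in both libraries. These are sizes in a pair of libraries, and the spread between samples of one genotype is unknown.

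The sequence around the gene start is shown first, because 3 of the 5 enzymes carry the same short word there. The word ACCTACC is a recognition element of MYB factors such as MYB12, known to switch on flavonol genes. It was searched on both strands in 300 bases, from 150 before to 150 after the gene start that RefSeq annotates on TAIR10.1, a window chosen after matches had been seen. CHS, CHI and CHIL each held 1 match, at 142, 81 and 62 bases after the first base of the gene. The stretches of 30 bases are at chr5:4488607-4488636 on the plus strand, chr3:20431498-20431527 on the minus strand and chr5:1563337-1563366 on the plus strand, and are written 5′ to 3′ on the gene's strand with the word in capitals.
CHS: ccgtccatctaACCTACCacactctcatct
CHI: taactattgctACCTACCcttctctcttct
CHIL: aaaattatgttACCTACCaccagtccctgg

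TT7 and FLS1, with the largest ratios, held no match to this word in the window, and of all 8 members 4 did, F3H on the other strand. Over 12766 measured loci the share of windows with a match was 1.49%. Since the window was chosen after matches had been seen, this share is no test of the members' count. The G-box CACGTG, a word of light-responsive promoters bound by factors such as HY5, was in the windows of CHI and CHIL among the 5, and in 8.47% of windows overall. Its core ACGT, which lies inside each G-box, was in 4 of the 5 and in 50.5% of windows. The mitochondrial dysfunction motif, CTTG followed by 5 bases of any kind and then CAAG or CACG, is the word through which NAC factors act when mitochondria are impaired. None of the 8 members held it in this window, and 1.17% of windows did. A match is a description of the letters and no evidence of binding. The table listed the CHS and CHI transcripts as starting downstream of the matches shown, whereas RefSeq starts both genes upstream of them.

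CHS is the entry enzyme and the most abundant member. The table places it on chromosome 5 from 4488688 to 4490264 on the plus strand, and RefSeq gives it 2 exons. It had 7319 reads in Col against 15056 in the library labelled atphb3, that is 982 CPM (960 to 1005) and 2039 CPM (2006 to 2072). The ratio of 2.08 had an interval of 2.02 to 2.13. In RPKM, which also divides by transcript length, CHS went from 659 to 1367, and from rank 67 to rank 17 of all measured loci. CHS lay close to the 2-fold limit: its log2 ratio of 1.05 was 0.99 under TMM scaling, which left 2 enzymes, TT7 and FLS1, past 2-fold. The annotated end of CHS overlaps that of AT5G13940 on the opposite strand, and reads there could not be assigned by strand.

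CHI (chromosome 3, 20430114 to 20431470, minus strand, 4 exons), which turns chalcone into naringenin, differed least. It had 743 and 1018 reads, or 99.7 CPM (92.7 to 107) in Col against 138 CPM (130 to 147) in the library labelled atphb3. The ratio was 1.38 (1.26 to 1.52), and 27.4% of measured loci had a higher log2 ratio. The intervals of CHI and CHS did not overlap: the RPKM of CHS was 6.14 times that of CHI in Col and 9.23 times in the other library.

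CHIL (chromosome 5, 1563320 to 1565007, plus strand, 5 exons), a relative of CHI that raises the yield of chalcone without catalysing the closure itself, was shallow. Summed over its transcripts it had 47 and 84 reads, or 6.31 CPM (4.63 to 8.39) and 11.4 CPM (9.07 to 14.1). Its ratio of 1.80 (1.25 to 2.63) spans 2-fold within counting error. Its 2 listed transcripts went from 45 to 77 and from 2 to 7 reads. Loci with several listed transcripts drew few reads in this table, since 25.3% of them were measured against 61.2% of loci with 1 transcript, so the level of CHIL is uncertain.

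TT7 (chromosome 5, 2560394 to 2563109, plus strand, 4 exons) is the cytochrome P450 that adds the hydroxyl group separating quercetin from kaempferol. It had 60 reads in Col against 304 in the library labelled atphb3, or 8.05 CPM (6.14 to 10.4) and 41.2 CPM (36.7 to 46.1). The ratio of 5.11 (3.87 to 6.86) had an interval that lay above those of the other 4 except FLS1, whose upper end of 3.91 just reached it. A share of 1.51% of measured loci, 195, had a higher log2 ratio than the 2.34 of TT7.

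FLS1 (chromosome 5, 2803958 to 2805447, plus strand), which makes flavonols from dihydroflavonols, had 59 and 167 reads, or 7.92 CPM (6.03 to 10.2) and 22.6 CPM (19.3 to 26.3). The ratio was 2.86 (2.11 to 3.91), and 4.28% of measured loci had a higher log2 ratio than its 1.51. FLS1 and TT7 draw on the same dihydroflavonols, one making flavonols and the other hydroxylating them. The RPKM of TT7 was 0.739 times that of FLS1 in Col and 1.32 times in the other library.

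**Figure D1:**
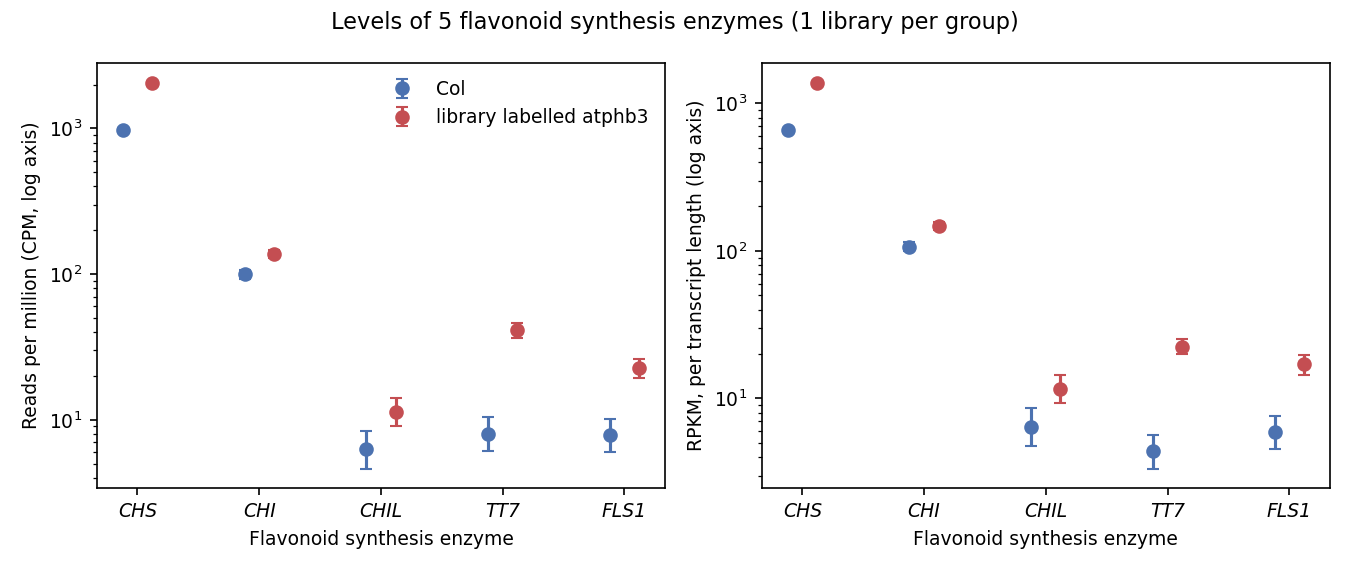
Levels of the 5 flavonoid enzymes in CPM (left) and RPKM (right), both on log axes, with 1 point per library and bars for the 95% Poisson interval of the reads. The red points of the library labelled atphb3 lie above the blue points of Col for each gene, with the widest gap for TT7, at 8.05 and 41.2 CPM.

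Per transcript length the order of the levels was steep. In Col, CHS stood at 659 RPKM and CHI at 107 RPKM, far above CHIL at 6.44, FLS1 at 5.94 and TT7 at 4.39 RPKM. The 95% counting intervals of those last 3 overlapped, at 4.73 to 8.57, 4.52 to 7.66 and 3.35 to 5.65 RPKM, so their order in Col is not set. In the library labelled atphb3, CHS at 1367 and CHI at 148 RPKM again led, and TT7 followed at 22.4 (20.0 to 25.1), FLS1 at 17.0 (14.5 to 19.7) and CHIL at 11.6 RPKM (9.29 to 14.4). There the intervals of TT7, FLS1 and CHIL did not overlap, though neighbours nearly touched. TT7 was thus among the lowest 3 in Col and ranked behind CHS and CHI alone in the other library.

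Together the 5 enzymes had 1104 CPM in Col against 2252 CPM in the library labelled atphb3, which gave a ratio of 2.04 (1.99 to 2.09). CHS alone made up 89.0% and 90.5% of those reads, so the sum mostly describes CHS. Without CHS the other 4 went from 909 to 1573 reads, a ratio of 1.75 (1.61 to 1.90).

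**Figure D2:**
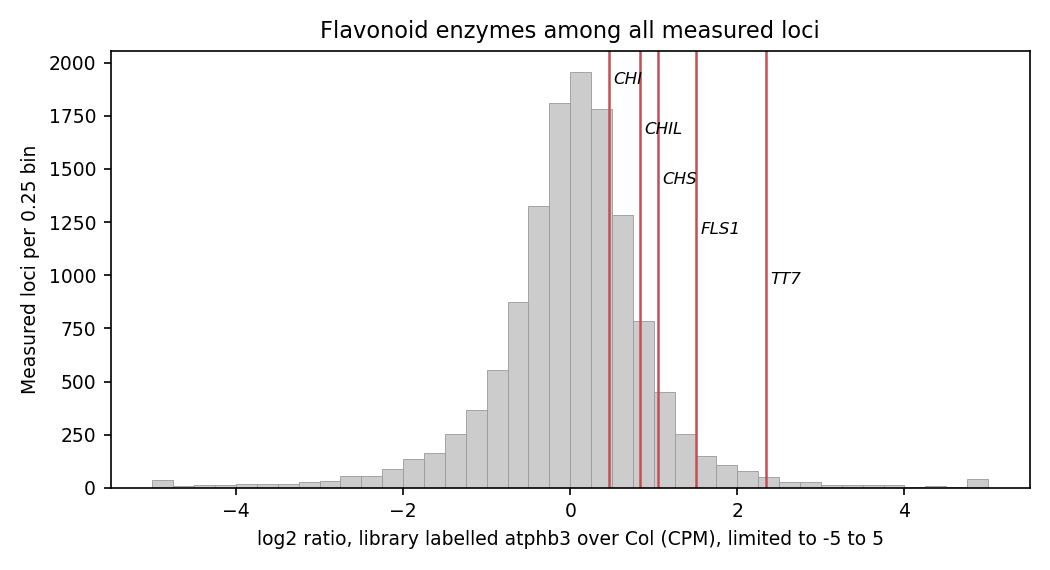
Histogram of log2 ratios (library labelled atphb3 over Col, CPM) over the 12931 measured loci in bins of 0.25, with values beyond 5 in either direction put in the end bins. Red lines mark the 5 enzymes, which all lie to the right of the median of 0.08, from CHI at 0.47 to TT7 at 2.34.

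Markers of root cell types differed between the same libraries, so their values stand beside these results. Root hair markers had 253 CPM in Col against 486 CPM in the library labelled atphb3, summed over 4 genes, and 2 of 4 measured were at least 2-fold higher. Of all measured loci 9.74% were this much higher and 10.1% this much lower. Root cap markers went from 31.4 to 68.8 CPM, with 2 of 3 measured at least 2-fold higher (1 of them, BRN2, measured through the library labelled atphb3 alone). Endodermis markers went from 254 to 329 CPM, with 1 of 3 measured at least 2-fold higher. These 3, named with their values known, differed: SCR went from 67.2 to 136 CPM and MYB36 from 38.0 to 48.5 CPM. CASP1 was level, at 148 CPM in Col and 144 CPM in the other library, a ratio of 0.969 (0.890 to 1.05). Phloem markers had 261 CPM against 51.3 CPM, with 2 of 2 measured at least 2-fold lower, and xylem markers had 279 against 148 CPM, with 1 of 3 lower. Of the listed markers with a row none was at 0 reads, but SMB of the root cap, ESB1 of the endodermis and APL of the phloem, named after their values were seen, had 1 to 6 reads. In bulk root tips, more cells of a type and more RNA per cell cannot be told apart, and the part of cell makeup in the enzymes' ratios was not tested.

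**Figure D3:**
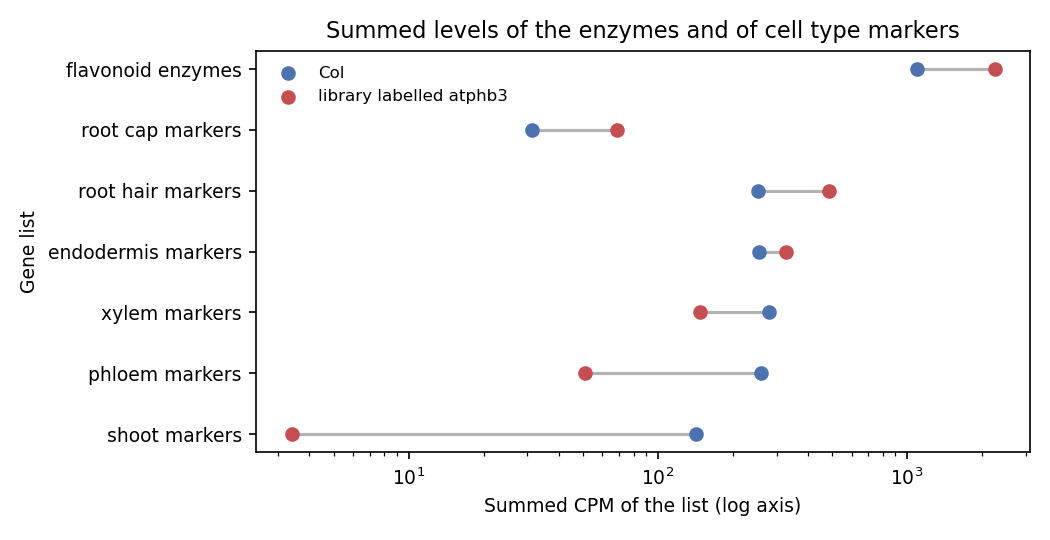
Summed CPM (log axis) of the flavonoid enzymes and of lists of cell type markers, with 1 point per library. The enzymes (1104 and 2252 CPM), root cap, root hair and endodermis markers lie higher in the library labelled atphb3, while phloem, xylem and shoot markers lie lower. XCP2 makes up most of the xylem sum, and CASP1 of the endodermis list was level, at 148 and 144 CPM.

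The general phenylpropanoid enzymes that feed CHS were nearly level in sum. Of 8 listed entry enzymes 6 were measured, with 0 at least 2-fold apart in either direction and a median log2 ratio of -0.13. Below the minimum were PAL3, with 0 and 1 reads, and 4CL3, with 1 and 7 reads, a ratio of 7.06 (0.907 to 318). PAL1, a phenylalanine ammonia-lyase that opens the route, had 5753 and 6059 reads, a ratio of 1.06 (1.02 to 1.10). C4H, the cinnamate hydroxylase of the second step, had 5044 and 6644 reads, a ratio of 1.33 (1.28 to 1.38). Of the 6 measured, 3 had a log2 ratio above 0. PAL2 and PAL4, named with their values known, were lower: PAL2 had 4570 and 2716 reads, 1.67-fold lower (1.59 to 1.75). PAL4 had 1298 and 1020 reads, 1.26-fold lower (1.16 to 1.37). Summed over all 8 entry enzymes the level was 2377 CPM in Col against 2372 CPM in the library labelled atphb3.

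The lignin branch, which draws on the same precursor, had 7 of 8 genes measured, 1 at least 2-fold lower and 0 higher, around a median of 0.23. The gene that was lower is FAH1, the ferulate hydroxylase of syringyl lignin, with 487 and 133 reads, 3.63-fold lower (2.99 to 4.43). Coumarins also branch from this route. Of 3 measured coumarin genes 1 was 2-fold apart, namely CYP82C4, an enzyme that oxidises coumarins when iron is short, with 6 and 687 reads and a ratio of 116 (52.8 to 316); it was measured through the library labelled atphb3 alone.

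Enzymes that decorate flavonoids and related phenylpropanoids act downstream of the members. Of 15 listed, 8 were measured, 3 of these passed 2-fold upward, 0 downward, and the median was 0.78 on the log2 scale. UGT78D2, which puts glucose on the 3-position of flavonols and anthocyanidins, had 207 and 748 reads, a ratio of 3.65 (3.12 to 4.27). AT1G06000, annotated as a flavonol 7-O-rhamnosyltransferase, had 188 and 452 reads, a ratio of 2.43 (2.04 to 2.89). AT1G06000 overlaps another annotated locus, so some of its reads are uncertain. The same holds for other genes named here, among them RHM1, DTX35, ATR1, CB5D, SCPL10, TT19, AT4G14090 and MYB11. UGT84A2 had 218 and 639 reads, a ratio of 2.96 (2.53 to 3.47), but its annotated substrate is sinapic acid, a phenylpropanoid rather than a flavonoid. RHM1, which supplies UDP-rhamnose, is named although it falls outside the rule for named genes: 3338 reads against 6342, a log2 ratio of 0.94.

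FLS2, FLS3, FLS4 and FLS5 are paralogs of FLS1 that lie side by side on chromosome 5, and most of them are known to have little or no flavonol synthase activity. In the list of other flavonoid enzymes and paralogs, 5 of 10 were measured, of which 2 were at least 2-fold lower and 0 higher, around a median of -0.75. FLS2 had 58 and 3 reads, 19.2-fold lower (6.24 to 95.6), and FLS4 had 140 and 52 reads, 2.67-fold lower (1.93 to 3.74). FLS2 was measured through Col alone, where it was the higher, so its difference helped to decide that it entered. FLS1 had a ratio above 1, and each gene of the FLS2 to FLS5 cluster had a ratio below 1.

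The transport list includes genes that move flavonoids to the vacuole. Of 6 listed for transport 2 were measured, GFS9, a membrane factor of vacuolar delivery, with a ratio of 1.24 (1.08 to 1.43), and DTX35, a flavonoid carrier of flowers, with 1.36 (0.962 to 1.92). Both lay within 2-fold. TT7 takes electrons from P450 reductase, and of 3 genes listed for electron supply 2 were measured. The reductase ATR1 had 134 and 88 reads, a ratio of 0.663 (0.501 to 0.874). The reads of ATR1 were split over 2 listed transcripts, so its level is uncertain. The cytochrome b5 gene CB5D had 1138 and 1525 reads, a ratio of 1.35 (1.25 to 1.46).

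Among regulators of the pathway, 14 of 28 listed were measured, 2 passed 2-fold upward, 1 downward, and the median was 0.13 on the log2 scale. MYBL2, a single-repeat MYB protein that represses flavonoid genes, had 106 reads in Col against 21 in the library labelled atphb3, which gave a ratio of 0.200 (0.119 to 0.321), and was measured through Col alone. HYH, a close relative of the light factor HY5, had 13 and 55 reads, a ratio of 4.27 (2.30 to 8.52), and was measured through the library labelled atphb3 alone. Its reads were split over 3 listed transcripts, so its level is uncertain. NAC032, a stress factor known to repress anthocyanin genes, had 232 and 635 reads, a ratio of 2.76 (2.37 to 3.22). The main flavonol activator of roots, MYB12, is named with its value known: 139 reads against 149, a ratio of 1.08 (0.853 to 1.37). HY5, named likewise, gave 392 reads against 342, a ratio of 0.880 (0.759 to 1.02).

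Turnover of the route's enzymes is set in part by kelch repeat F-box proteins, and KFB01, KFB20 and KFB50 are known to mark phenylalanine ammonia-lyase for breakdown. Of 5 listed 4 were measured, of which 1 was at least 2-fold lower and 0 higher, around a median of -0.56. KFB20 (AT1G80440) had 1374 and 313 reads, 4.35-fold lower (3.85 to 4.93). KFB01 and KFB50, given with their values known, went in opposite directions. KFB01 had 631 and 725 reads, a ratio of 1.16 (1.04 to 1.29), and KFB50 had 608 and 412, a ratio of 0.684 (0.602 to 0.776). AT1G23390, described in the table as a kelch repeat F-box protein and named with its value known, had 746 and 496 reads, a ratio of 0.671 (0.598 to 0.753). These counts of related genes stand beside the same background of 9.74% higher and 10.1% lower.

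**Figure D4:**
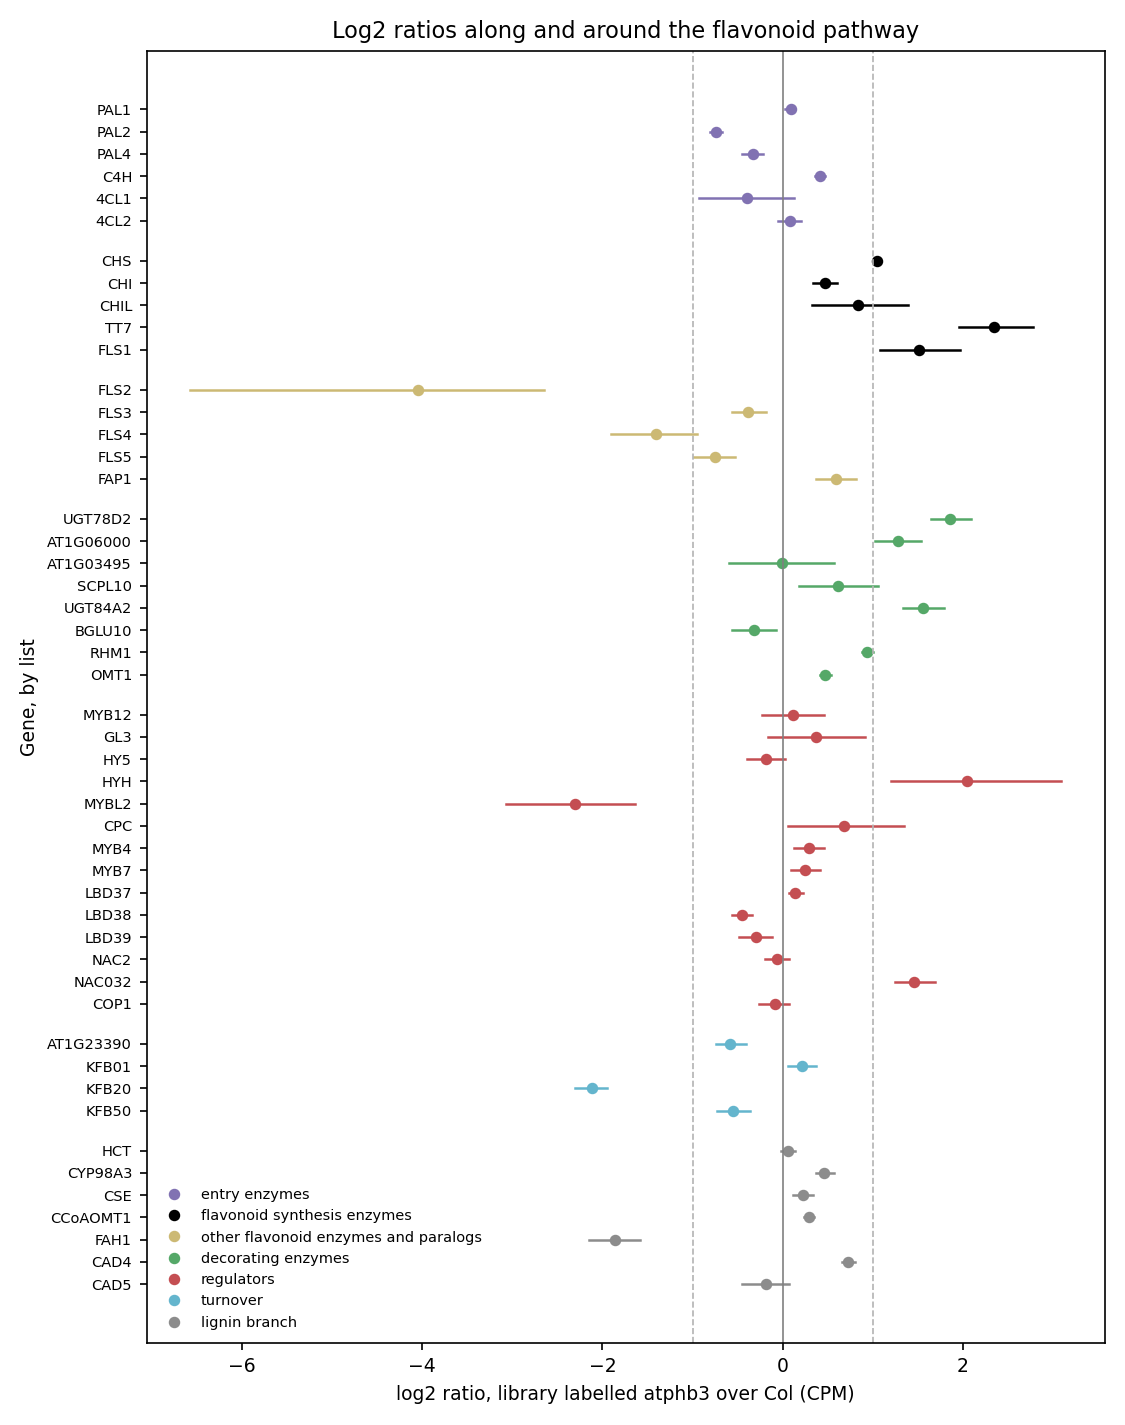
Log2 ratios (library labelled atphb3 over Col, CPM) of measured genes of 7 lists, with 95% counting intervals as lines, 1 colour per list and dashed lines at 2-fold. The 5 flavonoid enzymes (black) lie between 0.47 and 2.34, the entry enzymes between -0.74 and 0.41, and the FLS2 to FLS5 paralogs below 0.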

How the data were processed

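Per the labels' protocols, total RNA of root tips was reverse transcribed from random primers for Illumina sequencing, and 1 sentence there also names shoots. The deposited table gives 26425 transcripts with a read count and an RPKM value per library, per the file headers. From the values, the authors' RPKM is the count divided by transcript length and by the column total, and a count of 0 is given as 0.01. The authors' deposited log2 ratio is that of the RPKM values, and their p-value and false discovery rate, which compare 1 library with 1 library, were not used. Aligner, counting tool and build are not given in the sources used here.

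Counts were summed to 22937 loci and divided by the column total to give CPM. Log2 ratios used counts raised by 0.5 reads, and other ratios are of CPM without this addition. No strand-marking kit is named. Of loci matched to RefSeq TAIR10.1, 98.5% of 22759 spans lay inside the RefSeq locus. Genes named were all members, and in each related list the measured genes at least 2-fold apart or else the 2 with most reads. Members and lists were chosen with earlier results of these data known. Functions were tested on simulated counts. Alternatives used TMM factors (edgeR 4.0.16) and median of ratios factors (DESeq2 1.42.0). Other values came from Python 3.11.15, numpy 2.4.6, pandas 2.3.3 and scipy 1.17.1, with R 4.3.3 for edgeR and DESeq2. With 1 library per genotype, intervals cover counting error only. No molecular identifiers are named, so copied reads could not be told apart and the intervals may be too narrow.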

Additional observations from a re-analysis of the deposited data

How the results depend on the processing

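No paired analysis was possible because each genotype had 1 library. The ratios of CHI, CHIL, TT7 and FLS1 stayed inside their counting intervals under 7 alternatives of scaling, unit, pseudocount and summing, from 0.40 to 0.47, 0.77 to 0.85, 2.27 to 2.35 and 1.44 to 1.51 on the log2 scale. CHS, and the median with it, was 0.99 with TMM factors, 1.01 with median of ratios factors and 0.98 with totals that leave out the 10 most abundant loci. With the first and last of these, 2 enzymes passed 2-fold, TT7 and FLS1. A minimum of 200 reads left 3 measured, of which 2 passed, CHS and TT7. A 4-fold limit left 1, TT7, and a 1.5-fold limit gave 4. With loci of 1 listed transcript only, chosen after seeing the data, CHIL dropped out and the median was 1.28. The counts of all measured loci past 2-fold, 1259 upward and 1301 downward, became 3656 and 3580 with no filter, 671 and 743 with a minimum of 200 reads, 2839 and 2372 at 1.5-fold, 300 and 387 at 4-fold, and 691 and 825 with the interval wholly beyond 2-fold. Depth limits CHIL, TT7 and FLS1, with 47 to 60 reads in Col.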

Other observations

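Some genes of the anthocyanin and tannin branch were below the minimum of 50 reads in both root tip libraries, and those given here were picked for that after their values were seen. Others in the same list of decorating enzymes were measured, such as BGLU10 with 315 and 250 reads, SCPL10 with 73 and 111 and AT1G03495 with 53 and 52. BAN, the anthocyanidin reductase of seed coats, UF3GT, an anthocyanin glycosyltransferase, and TT8, a bHLH regulator of that branch, each had 0 reads in Col against 1 in the other library. TT19, a glutathione transferase needed for anthocyanin delivery to the vacuole, had 3 and 4 reads. AT4G14090, annotated as an anthocyanidin 5-O-glucosyltransferase, had 10 and 3 reads, a ratio of 0.303 (0.0535 to 1.18). MYB11, a relative of MYB12 that also activates flavonol genes, had 2 and 11 reads, a ratio of 5.55 (1.21 to 51.5), and was too shallow to be measured. The laccase-like gene TT10 had 11 and 25 reads, a ratio of 2.29 (1.09 to 5.16), also below the minimum.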
